A study of Mus musculus with 20 samples.

Results

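In mouse liver 10 genes that encode enzymes of bile acid synthesis and conjugation were followed, chosen by name: Cyp7a1, Cyp8b1, Cyp27a1, Cyp7b1, Hsd3b7, Akr1d1, Slc27a5, Baat, Amacr and Acox2. Each gene was read from the probe set with the highest mean log2 value over all arrays, and all 10 were measurable, out of 16187 measurable genes on the array. Livers came from 4 groups of 5 individual mice: Scd1-/- fed a very low fat diet (Harlan Teklad TD03045, here VLF), Scd1+/+ on the VLF diet, Scd1-/- on chow and Scd1+/+ on chow. They are called knockout and wild type below. Scd1 encodes stearoyl-CoA desaturase, the liver enzyme that makes monounsaturated from saturated fatty acids, and no other allele or agent is named for any group. The series design calls the diet VLF-HC and asks for expression changes unique to the knockout on that diet. Strain, age, sex, feeding time, time on the diet and whether the deletion is whole-body or limited to a tissue are not stated in the sources used here.

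Bile acids are made from cholesterol in the hepatocyte. The classic pathway starts with 7α-hydroxylation of cholesterol by Cyp7a1, the rate-limiting step, and the alternative pathway starts with side-chain hydroxylation by mitochondrial Cyp27a1 followed by 7α-hydroxylation by Cyp7b1. Hsd3b7 and Akr1d1 then modify the steroid ring, Cyp8b1 adds the 12α-hydroxyl group that makes cholic acid, peroxisomal Amacr and Acox2 act in shortening the side chain, and Slc27a5 and Baat couple the product to CoA and then to an amino acid. Bile acids returning from the gut repress the pathway through the nuclear receptor FXR (Nr1h4) in liver and gut, and several of its enzymes follow the daily clock.

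Each value is a normalised array intensity in arbitrary units, so levels are compared between livers for one gene and not between genes. The 20 arrays had deposited medians of 32.2 to 36.6 over all probe sets. Deposited Scd1 intensity was 25.9 to 57.4 in knockout arrays and 6522 to 20108 in wild-type arrays, which matched every genotype label. Xist, an RNA of the inactive X chromosome, lay at the floor of 16 in wild-type VLF array 3 and at 1230 to 1937 in the other 19 arrays. The Y-linked Eif2s3y and Uty lay at the floor in all 20 arrays, array 3 included. Knockout chow array 3 lay farthest from its group's mean profile, at a mean absolute log2 deviation of 0.140. Leaving out both arrays kept the call of every enzyme named below in every comparison, except Cyp27a1 in the interaction. The ratio of 3′ to 5′ actin signal, a sign of RNA integrity, was 1.69 to 1.96 in knockout VLF, 1.95 to 2.39 in wild-type VLF, 2.10 to 2.37 in knockout chow and 2.49 to 3.07 in wild-type chow arrays. It was lowest as a group in knockout VLF livers, just overlapping wild-type VLF livers. The same ratio for Gapdh was 1.25 to 1.35 in knockout VLF arrays, within the 1.23 to 1.41 of wild-type VLF arrays. The Gapdh ratio was 1.33 to 1.40 in knockout chow and 1.42 to 1.71 in wild-type chow arrays. The part of RNA integrity in the results below was not tested.

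The DNA around the transcription start is shown for the enzyme with the largest fall (Cyp8b1), for a pair of ring-modifying enzymes that also fell (Hsd3b7 and Akr1d1), and for the one enzyme that rose (Acox2). Each sequence runs from 250 bases before to 50 bases after a RefSeq start on GRCm38.p6, 5′ to 3′ on the gene's strand, and capitals mark motif matches. Windows were held in the RefSeq table for 5 of the 10 genes (these 4 and Cyp27a1); Cyp7a1, Cyp7b1, Slc27a5, Baat and Amacr are named only. The Cyp8b1 window lies on chr9:121916256-121916555, minus strand, the Hsd3b7 window on chr7:127800359-127800658, plus strand, the Akr1d1 window on chr6:37529923-37530222, plus strand, and the first of the 2 Acox2 windows on chr14:8258790-8259089, minus strand.
Cyp8b1: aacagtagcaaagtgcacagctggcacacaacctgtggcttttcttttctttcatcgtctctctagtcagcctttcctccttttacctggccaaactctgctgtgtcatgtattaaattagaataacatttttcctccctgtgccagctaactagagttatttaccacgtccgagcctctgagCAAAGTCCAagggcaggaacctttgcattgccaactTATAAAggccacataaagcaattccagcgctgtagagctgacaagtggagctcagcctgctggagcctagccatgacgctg
Hsd3b7: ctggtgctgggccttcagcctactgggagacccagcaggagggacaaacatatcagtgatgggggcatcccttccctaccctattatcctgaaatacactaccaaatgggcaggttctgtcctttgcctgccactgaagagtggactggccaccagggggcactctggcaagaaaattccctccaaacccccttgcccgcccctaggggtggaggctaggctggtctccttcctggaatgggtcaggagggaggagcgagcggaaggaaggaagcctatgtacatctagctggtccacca
Akr1d1: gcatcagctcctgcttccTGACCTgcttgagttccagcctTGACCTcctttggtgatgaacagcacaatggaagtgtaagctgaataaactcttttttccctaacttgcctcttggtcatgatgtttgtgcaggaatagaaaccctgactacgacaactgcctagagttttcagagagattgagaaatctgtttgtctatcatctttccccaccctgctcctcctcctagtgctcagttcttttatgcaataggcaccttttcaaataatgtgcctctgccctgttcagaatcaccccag
Acox2: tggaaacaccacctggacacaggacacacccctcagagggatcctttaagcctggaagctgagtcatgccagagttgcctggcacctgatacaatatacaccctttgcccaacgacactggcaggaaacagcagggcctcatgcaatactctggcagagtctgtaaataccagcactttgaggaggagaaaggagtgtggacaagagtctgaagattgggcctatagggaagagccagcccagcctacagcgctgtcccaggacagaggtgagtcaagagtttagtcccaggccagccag

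The Cyp8b1 window held CAAAGTCCA, a motif bound by the hepatocyte nuclear receptor HNF4A, at position -67 from the start, and TATAAA, the TATA box, at position -31. Both were looked for after the sequences had been seen. Over all 32851 windows of this length, 0.475% held CAAAGTCCA and 13.6% held TATAAA on either strand. The Akr1d1 window held AGGTCA, the nuclear receptor half-site, on the opposite strand at positions -232 and -210. AGGTCA is part of the longer AAGGTCA and was present in 16.3% of all windows. Of the 6 windows of these enzymes none held AAGGTCA (4.72% of all windows), the D-box TTATGTAA (0.938%), the E-box CACGTG (7.15%) or the HNF1 half-site GTTAAT (7.1%). A match here describes letters in the window and not a bound site.

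On the VLF diet 9 of the 10 enzymes fell in the knockout and Acox2 rose. Cyp8b1 fell 15.4-fold and Cyp7a1 4.89-fold, and the 7 other falls ran from 1.33-fold (Amacr) to 3.15-fold (Cyp7b1). A call throughout is an adjusted p under 0.05 from limma, a linear model with shared variance, with p-values adjusted over 45037 probe sets by Benjamini and Hochberg. Between these groups 25.8% of all measurable genes were called lower and 21.5% higher, and among the 2696 genes at least as bright on average as the dimmest of the 10 enzymes 40.9% were called lower. The median log2 change of the 10 enzymes was -1.26, beside -0.06 for all genes. Knockout and wild-type livers did not overlap in 9 of the 10 enzymes, against 33.9% of all genes, and Amacr was the exception. On chow none of the 10 passed the test. In whole liver, fewer hepatocytes and less RNA per hepatocyte cannot be told apart.

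**Figure D1:**
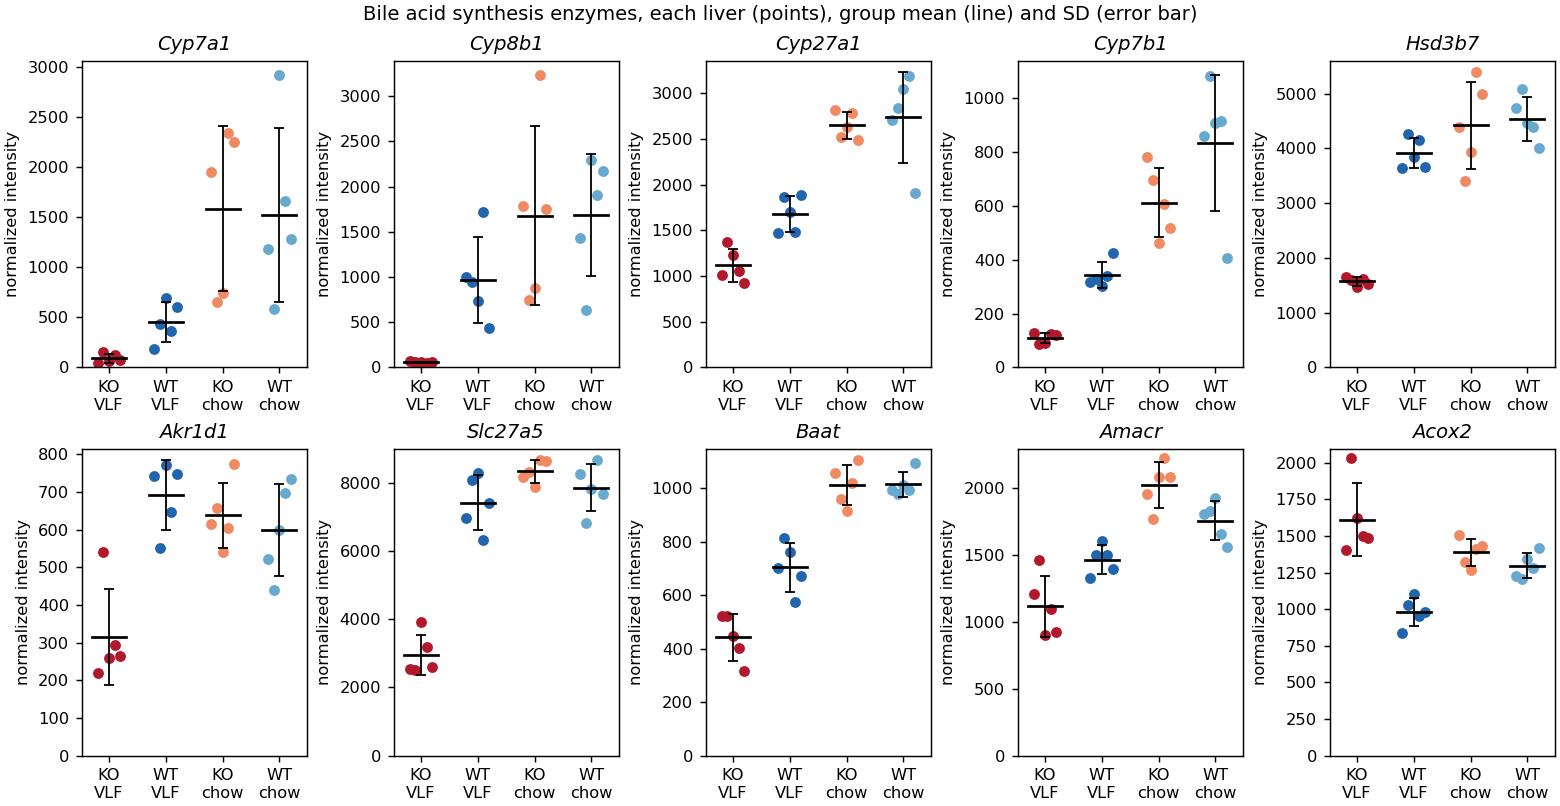
Normalised intensity (linear axis, arbitrary units) of the 10 enzymes in each liver. Each point is 1 liver, the line the group mean and the error bar the SD. There were 5 livers in each of the knockout VLF, wild-type VLF, knockout chow and wild-type chow groups. The knockout VLF livers lie lowest for Cyp8b1 (45.5 to 68.5, against 437 to 1723 in wild-type VLF livers) and highest as a group for Acox2.

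Markers of macrophages and stellate cells mostly rose in knockout VLF against wild-type VLF livers. Those of the other cell types were mixed in direction or mostly not called. The 10 macrophage and Kupffer cell markers all rose in knockout VLF livers, and their summed intensity was 18386 to 25674 there, against 5793 to 6655 in wild-type VLF livers. It was 6717 to 9781 in knockout chow and 6805 to 7867 in wild-type chow livers. Of 8 stellate cell markers 5 rose and 1 fell, with sums of 5160 to 6546 in knockout VLF and 2818 to 3720 in wild-type VLF livers. Of 6 measured cholangiocyte markers 2 rose (Sox9 and Cldn4), while Krt19, Krt7, Epcam and Muc1 did not pass the test and Cftr lay at the floor on every array. Of 6 sinusoidal endothelial markers 1 rose and 3 fell, and of 7 lymphocyte markers 2 fell. Between knockout VLF and wild-type VLF livers 25.8% of all measurable genes were called lower and 21.5% higher. The 8 measured hepatocyte markers summed to 124041 to 131206 in knockout VLF and 125275 to 133094 in wild-type VLF livers. Between these groups 1 was called higher, 3 lower and 4 were not called. Among genes at least as bright as the dimmest enzyme 40.9% were called lower. The sums were 126931 to 129655 in knockout chow and 127270 to 131926 in wild-type chow livers, so the tissue label held in every liver. Quantile normalisation gives every array the same set of values, so these sums do not measure the share of hepatocytes. The part of these markers in the falls of the enzymes was not tested.

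Cyp7a1 and Cyp8b1, which set the rate of the classic pathway and the share of cholic acid, had their lowest intensities in the knockout on the VLF diet. Cyp7a1 intensities were 49.0, 157, 64.4, 123 and 72.3 in the 5 knockout VLF livers, against 183, 437, 695, 369 and 601 in the 5 wild-type VLF livers. The highest knockout liver lay below the lowest wild-type liver, though by a small margin. Cyp7a1 averaged 93.2 ± 45.3 in knockout VLF and 457 ± 200.3 in wild-type VLF livers (mean ± SD, n = 5 each), a log2 change of -2.29 ± 0.48 (estimate ± standard error, limma adjusted p = 0.000963). On chow, Cyp7a1 intensities were 1956, 649.9, 747, 2339 and 2249 in the knockout, against 1184, 588, 2919, 1664 and 1279 in the wild type. The chow groups overlapped over most of their range, and every chow liver lay above every knockout VLF liver. A dimmer Cyp7a1 probe set changed by -0.87 ± 0.46 between the genotypes on the VLF diet and was not called (limma adjusted p = 0.171), so that fall rests on the brighter probe set.

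Cyp8b1 intensities were 68.5, 59.5, 57.5, 45.5 and 57.1 in the 5 knockout VLF livers, against 996, 945, 735, 1723 and 437 in the 5 wild-type VLF livers. The groups stood far apart, and the knockout livers lay close to one another. On chow, Cyp8b1 intensities were 1788, 747, 882, 3230.2 and 1756 in the knockout, against 1432, 640.1, 2293, 1912 and 2179 in the wild type. Cyp8b1 averaged 57.6 ± 8.17 in knockout VLF and 968 ± 476 in wild-type VLF livers (mean ± SD, n = 5 each), and the log2 change was -3.94 ± 0.41 (limma adjusted p = 3.95e-07). The knockout VLF arrays had deposited medians of 33.25 to 34.92. Cyp8b1 at 45.5 to 68.5 lay not far above them, and Cyp7a1 ran from 49.0 to 157. Background may limit both folds, but it was not estimated.

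**Figure D2:**
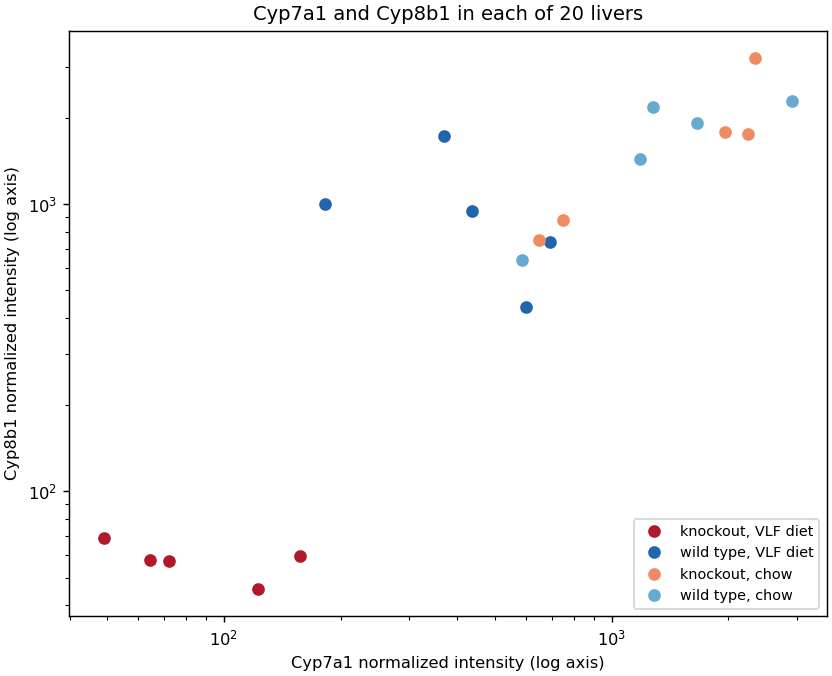
Normalised intensity of Cyp8b1 against Cyp7a1 (both log axes, arbitrary units), with 1 point for each of the 20 livers and a colour for each group of 5. Knockout VLF livers lie in the lower left corner, with Cyp7a1 at 49.0 to 157 and Cyp8b1 at 45.5 to 68.5, apart from every other liver in Cyp8b1.

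Of the 10 enzymes Cyp7a1 and Cyp8b1 also varied most from liver to liver. The SD within groups was 0.80 log2 units for Cyp7a1 and 0.68 for Cyp8b1, above 99.8% and 99.7% of all measurable genes. Cyp7b1 (0.36) and Akr1d1 (0.32) followed, while the other 6 lay between 0.14 (Acox2) and 0.21 (Cyp27a1). In knockout chow livers the pair with the lowest Cyp7a1 (livers 2 and 3) also had the lowest Cyp8b1, and liver 4 was highest in both. In wild-type chow livers liver 2 was lowest and liver 3 highest in both. On the VLF diet the order was not shared: in the knockout, liver 1 had the lowest Cyp7a1 and the highest Cyp8b1, and in the wild type liver 3 had the highest Cyp7a1 but only the fourth highest Cyp8b1.

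The enzymes of the alternative pathway fell as well. Cyp27a1 hydroxylates the sterol side chain in mitochondria. Cyp27a1 intensities were 1009, 1371, 1234, 1056 and 919 in the 5 knockout VLF livers, against 1470.4, 1859, 1701, 1476 and 1884 in the 5 wild-type VLF livers. The groups did not overlap, and the knockout mean of 1118 ± 182 stood against 1678 ± 199.8 in the wild type (mean ± SD, n = 5 each), a log2 change of -0.59 ± 0.13 (limma adjusted p = 0.00116). Averaging it with its other probe set, which lay at the floor on every array, gave a change of -0.30 (limma adjusted p = 0.00105). Cyp7b1 is the oxysterol 7α-hydroxylase. Cyp7b1 intensities were 128, 85.7, 91.6, 123 and 120.0 in the 5 knockout VLF livers, against 319, 331, 301, 339 and 427 in the 5 wild-type VLF livers. Every knockout VLF liver lay far below every wild-type VLF liver, and the log2 change was -1.66 ± 0.21 (limma adjusted p = 5.77e-06). On chow, Cyp7b1 intensities were 781, 696, 462, 607 and 520.1 in the knockout, against 861, 1083, 909, 917 and 408 in the wild type. Liver 5 was the low one of the wild-type chow group.

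The ring-modifying enzymes fell by similar amounts. Hsd3b7 is the C27 steroid dehydrogenase that acts after 7α-hydroxylation in both pathways. Hsd3b7 intensities were 1656, 1604, 1462, 1624 and 1526 in the 5 knockout VLF livers, against 3651, 4270.4, 3836, 4153 and 3669 in the 5 wild-type VLF livers. The knockout livers lay within a narrow band, below all wild-type livers. The log2 change was -1.31 ± 0.10 (limma adjusted p = 6.44e-09), and chow livers ran from 3398 to 5397 in the knockout and from 4003 to 5076 in the wild type. Akr1d1 is the 5β-reductase that gives bile acids their bent ring. Akr1d1 intensities were 219, 539, 258, 294 and 264 in the 5 knockout VLF livers, against 742, 551, 772, 648 and 747 in the 5 wild-type VLF livers. Knockout liver 2 lay just below the lowest wild-type liver, and the other 4 knockout livers lay well below. The log2 change was -1.20 ± 0.20 (limma adjusted p = 7.58e-05).

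The peroxisomal side-chain enzymes moved in opposite directions. Amacr, the racemase that readies the side chain for oxidation, had the smallest fall. Amacr intensities were 1205, 1456, 902, 1096 and 921 in the 5 knockout VLF livers, against 1327, 1499, 1601, 1495 and 1392 in the 5 wild-type VLF livers. Knockout liver 2 lay within the wild-type range, and the log2 change was -0.41 ± 0.11 (limma adjusted p = 0.00566). Acox2 is the branched-chain acyl-CoA oxidase of the next step. Acox2 intensities were 1406, 2033, 1624, 1499 and 1489 in the 5 knockout VLF livers, against 837, 1028, 1104, 952 and 983 in the 5 wild-type VLF livers. All knockout livers lay above all wild-type livers. Acox2 averaged 1610.2 ± 249 in knockout VLF and 981 ± 98.5 in wild-type VLF livers (mean ± SD, n = 5 each), a log2 change of 0.71 ± 0.09 (limma adjusted p = 4.26e-06). On chow, Acox2 intensities were 1505, 1322, 1265, 1412 and 1431 in the knockout, against 1229, 1208, 1339.7, 1283 and 1418 in the wild type. The chow groups overlapped, and the wild-type VLF livers were the lowest of the 4 groups.

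The conjugation enzymes both fell. Slc27a5 is the bile acyl-CoA synthetase, also a fatty acid transport protein of hepatocytes. Slc27a5 intensities were 2551, 2522, 3909, 3194 and 2603 in the 5 knockout VLF livers, against 6967, 8102, 8304, 6339.8 and 7426 in the 5 wild-type VLF livers. The groups did not overlap, and the log2 change was -1.34 ± 0.11 (limma adjusted p = 1.28e-08). Chow livers ran from 7902 to 8685 in the knockout and from 6841 to 8685 in the wild type. Baat joins the bile acid to an amino acid, in mice mainly taurine. Baat intensities were 521, 523, 445, 401 and 317 in the 5 knockout VLF livers, against 699.7, 812, 760.2, 573 and 671 in the 5 wild-type VLF livers. The groups did not overlap, and the log2 change was -0.69 ± 0.11 (limma adjusted p = 0.000109). A second Baat probe set fell by 0.51 on the log2 scale (limma adjusted p = 0.000561).

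Scaling bears on the smaller of these falls. Centring arrays on the hybridization controls, in place of the median and quantile steps, shifted the all-gene median by 0.20, to 0.14. No called change of an enzyme turned its direction under it. The log2 changes of Cyp27a1 (-0.30, limma adjusted p = 0.274), Baat (-0.30, adjusted p = 0.191) and Amacr (-0.11, adjusted p = 0.881) were then no longer called.

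**Figure D3:**
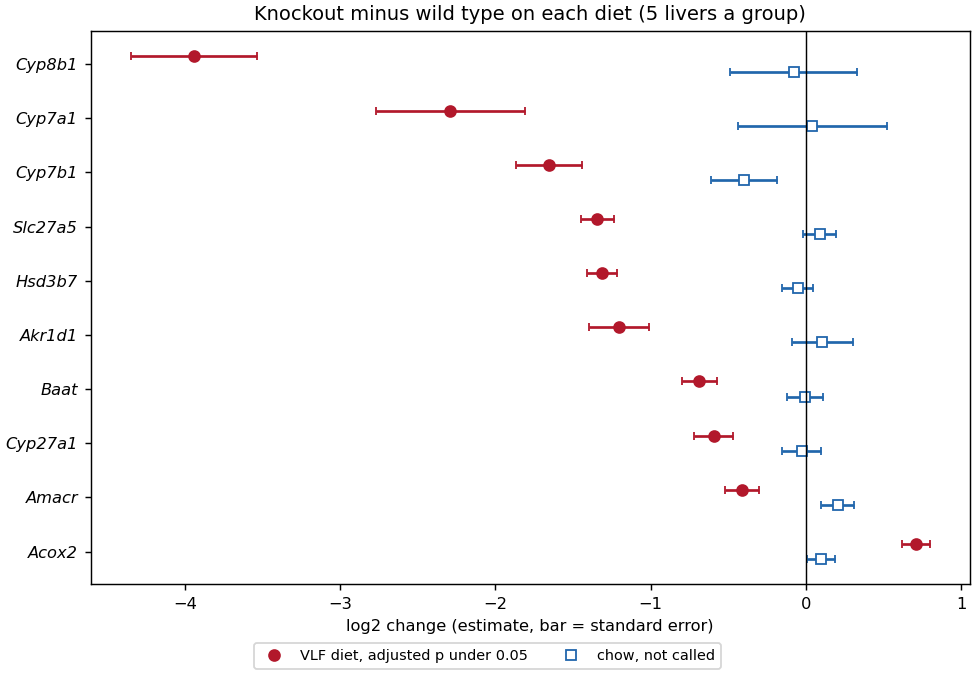
Log2 change of knockout over wild type for the 10 enzymes on the VLF diet (circles) and on chow (squares); bars are standard errors, filled symbols have an adjusted p under 0.05, and each group has 5 livers. On the VLF diet the changes run from -3.94 (Cyp8b1) to 0.71 (Acox2), and on chow from -0.40 (Cyp7b1) to 0.21 (Amacr).

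Between the genotypes on chow the 10 enzymes gave no call by limma and none had an unadjusted p under 0.05, where 3.29% of all genes were called in either direction. The log2 changes ran from -0.40 ± 0.21 for Cyp7b1 (limma adjusted p = 0.299) to 0.21 ± 0.11 for Amacr (adjusted p = 0.284), with a median of 0.02 beside -0.02 for all genes. For Cyp7a1 the change was 0.04 ± 0.48 and for Cyp8b1 -0.08 ± 0.41. These errors are not a limit of detection, and changes well above them can miss a call with 5 livers a group. Between the diets in the wild type a Cyp7a1 change of -1.69 ± 0.48 was not called (limma adjusted p = 0.107). Without wild-type chow liver 5 the Cyp7b1 change was -0.64 and was called (limma adjusted p = 0.0376), and with median scaling in place of quantile normalisation the Amacr change was 0.38 and was called (adjusted p = 0.0429).

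The VLF diet was compared with chow in each genotype. In the knockout 9 of the 10 enzymes fell on the VLF diet. Cyp8b1 fell 25.6-fold (log2 change -4.68 ± 0.41, limma adjusted p = 4.93e-08), Cyp7a1 16.2-fold (-4.02 ± 0.48, adjusted p = 2.40e-06) and Cyp7b1 5.57-fold (-2.48 ± 0.21, adjusted p = 4.19e-08). The other 6 falls ran from 1.83-fold for Amacr (-0.88 ± 0.11) to 2.87-fold for Slc27a5 (-1.52 ± 0.11). Acox2 was the exception, at 0.21 ± 0.09 (limma adjusted p = 0.107), and centring on the hybridization controls made it a call at 0.51 (adjusted p = 0.00511). That centring shifted the all-gene median by 0.33, to 0.30, and gave smaller falls, still called by limma, for Akr1d1 (-0.66), Baat (-0.79) and Amacr (-0.50). Of all measurable genes 19.9% were called lower and 19.2% higher in this comparison, and 39.3% lower among genes at least as bright as the dimmest enzyme. Knockout VLF and knockout chow livers did not overlap in 9 enzymes, against 28.3% of all genes, and the enzymes' median change was -1.36 beside -0.03. For Akr1d1 the highest knockout VLF liver (539.3) all but met the lowest knockout chow liver (539.4). In its dimmer probe set these groups overlapped. This comparison shares the knockout VLF livers with the genotype comparison on the VLF diet.

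In the wild type fewer enzymes passed the test. On the VLF diet 4 were called lower, as were 0.877% of all genes: Cyp7b1 (-1.22 ± 0.21, limma adjusted p = 0.00757), Cyp27a1 (-0.69 ± 0.13, adjusted p = 0.0107), Baat (-0.54 ± 0.11, adjusted p = 0.029) and Acox2 (-0.41 ± 0.09, adjusted p = 0.0331). Wild-type chow liver 5 overlapped the VLF range of Cyp7b1. Cyp7a1 averaged 457 ± 200.3 in wild-type VLF and 1527 ± 869 in wild-type chow livers (mean ± SD, n = 5 each), a change of -1.69 ± 0.48 that did not pass (limma adjusted p = 0.107) and did pass among brighter probe sets alone (adjusted p = 0.0400). Cyp8b1 (-0.81 ± 0.41), Hsd3b7 (-0.21 ± 0.10), Akr1d1 (0.22 ± 0.20), Slc27a5 (-0.08 ± 0.11) and Amacr (-0.26 ± 0.11) also did not pass. The median of the 10 was -0.47 beside -0.02 for all genes. The Baat call was lost without any 1 of wild-type VLF livers 1, 4 or 5 or wild-type chow livers 1, 2, 3 or 5 (limma adjusted p up to 0.0939). The Acox2 call was lost without any 1 of wild-type VLF livers 1, 2, 4 or 5 or wild-type chow livers 1, 3, 4 or 5 (adjusted p up to 0.0935), and none of the 4 calls held with hybridization control centring. The sizes there were -1.17 for Cyp7b1, -0.68 for Cyp27a1, -0.48 for Baat and -0.36 for Acox2, with limma adjusted p from 0.0571 to 0.757.

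**Figure D4:**
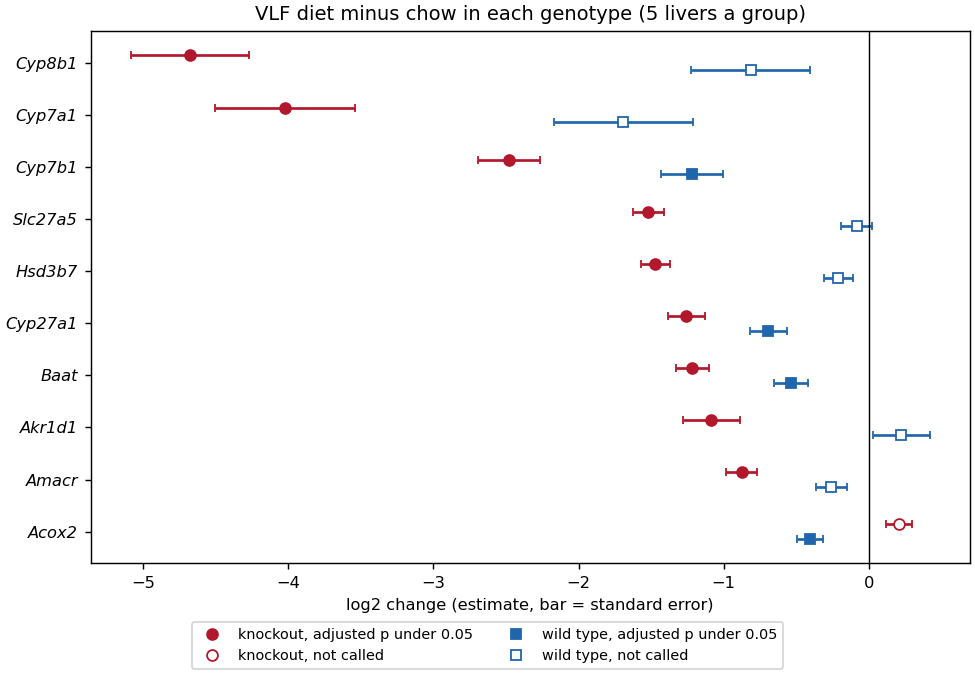
Log2 change of the VLF diet over chow for the 10 enzymes in the knockout (circles) and the wild type (squares); bars are standard errors, filled symbols have an adjusted p under 0.05, and each group has 5 livers. In the knockout 9 changes lie between -4.68 (Cyp8b1) and -0.88 (Amacr), and the wild-type changes lie between -1.69 (Cyp7a1) and 0.22 (Akr1d1).

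The interaction tests whether the genotype change on the VLF diet differs from that on chow, and all 10 enzymes passed it. Of them 9 were lower and Acox2 higher, where 13.6% of all genes were called lower and 13.6% higher. The difference was -3.86 ± 0.58 log2 units for Cyp8b1 (limma adjusted p = 7.18e-05), -1.43 ± 0.15 for Slc27a5 (adjusted p = 1.50e-06), -1.26 ± 0.14 for Hsd3b7 (adjusted p = 2.56e-06) and 0.61 ± 0.13 for Acox2 (adjusted p = 0.00157). For Cyp7a1 it was -2.33 ± 0.68 (limma adjusted p = 0.0203), with the dimmer probe set at -1.42 ± 0.65 and not called (adjusted p = 0.171). The median was -1.26, beside 0.00 for all genes. Hybridization control centring shifted the all-gene median by 0.34, to 0.33, and left 5 calls. The differences no longer called were -2.03 for Cyp7a1, -0.93 for Cyp7b1, -0.31 for Baat, -0.28 for Amacr and -0.20 for Cyp27a1 (limma adjusted p from 0.0601 to 0.621). Relative to the all-gene median Cyp7a1 was at -2.37 and Cyp7b1 at -1.26, beside -2.33 and -1.25 with quantile normalisation. The Cyp27a1 difference of -0.57 ± 0.18 (limma adjusted p = 0.0334) lost its call without any 1 of knockout VLF livers 1, 4 or 5, knockout chow livers 1 or 4, wild-type VLF livers 2, 3 or 5 or wild-type chow liver 1 (adjusted p up to 0.0649), and without both arrays that stand apart (adjusted p = 0.0683). For Baat (-0.68 ± 0.16) the call was lost with the probe sets whose IDs end in _x_at, _s_at or _a_at left out (-0.42, limma adjusted p = 0.0571).

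Other genes of bile acid synthesis fell in part. Of 14 measured genes of the list, 9 fell and none rose between the genotypes on the VLF diet. Their median was -0.49 beside -0.06 for all genes. Shares over all measurable genes were 25.8% lower and 21.5% higher, with 40.9% lower among genes at least as bright as the dimmest enzyme. Scp2, whose long form is the peroxisomal thiolase that cuts the side chain, changed by -0.87 ± 0.05 (limma adjusted p = 5.12e-10). Slc27a2, a very-long-chain acyl-CoA synthetase, changed by -1.42 ± 0.11 (adjusted p = 1.28e-08 by limma). Akr1c14, a 3α-hydroxysteroid dehydrogenase, changed by -1.77 ± 0.15 and Abcd3, a transporter in the peroxisomal membrane, by -1.05 ± 0.11 (limma adjusted p = 2.43e-08 and 3.88e-07). The genes that did not pass were Cyp2c70 (-0.16), which makes muricholic acids in mice, Cyp2a12 (-0.16), which rehydroxylates secondary bile acids in mice, Cyp3a11 (-0.05), Cyp39a1 (0.36) and Ch25h (0.05). Of this list 4 fell and 1, Cyp39a1 (0.76, limma adjusted p = 0.00907), rose with hybridization control centring. Cyp39a1 was also called higher with median scaling alone (0.57, limma adjusted p = 0.0275) and with only the groups compared fitted (0.36, adjusted p = 0.0482). Cyp2a12 was called lower without knockout VLF liver 2 (-0.21, limma adjusted p = 0.0208). With the floor used for the main results, Ch25h lay at the floor on 19 of the 20 arrays. Ch25h was called higher with a floor of 4 (0.31, limma adjusted p = 0.00913). That call rests mostly on values below the main floor and does not show a rise of Ch25h. In the knockout 11 of the 14 fell on the VLF diet against chow, where 19.9% of all genes were called lower. None was called on chow between genotypes or in the wild type between diets. With median scaling alone Cyp3a11 was called lower in the wild type between diets (-0.19, limma adjusted p = 0.0156).

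Regulators of the pathway were mostly lower. Of 17 measured, 12 fell, 2 rose and 3 did not pass between the genotypes on the VLF diet, with a median of -0.75. Shares over all measurable genes were 25.8% lower and 21.5% higher, with 40.9% lower among genes at least as bright as the dimmest enzyme. With hybridization control centring 9 fell, and Fgfr4 (-0.05), Hnf4a (-0.08) and Prox1 (-0.43) were no longer called. Fgfr4 also lost its call with median scaling alone (-0.24, limma adjusted p = 0.223). Dbp, a clock-driven transcription factor that acts on Cyp7a1, was 112 to 365 in knockout VLF and 1933 to 2975 in wild-type VLF livers, a log2 change of -3.43 ± 0.31 (limma adjusted p = 6.79e-08). Feeding and sampling times are not stated in the sources used here, and their part in the change of Dbp or of the enzymes was not tested. The hepatocyte factor Cebpa changed by -2.02 ± 0.13, the xenobiotic receptor Nr1i3 (CAR) by -1.55 ± 0.14 and the bile acid receptor Nr1h4 (FXR) by -1.34 ± 0.13 (limma adjusted p = 1.10e-09, 8.06e-08 and 1.78e-07). Ppargc1a, a coactivator induced by fasting, rose by 1.59 ± 0.27 and Mafg, a repressor of the pathway in mice, by 0.21 ± 0.08 (limma adjusted p = 0.000132 and 0.0358). The Mafg call was lost, which left 1 regulator called higher, without any 1 of knockout VLF livers 3, 4 or 5 or wild-type VLF livers 1 or 4 (limma adjusted p up to 0.108), and with the probe sets of a gene averaged (0.04, adjusted p = 0.771). Nr0b2 (SHP), the repressor that FXR induces, was 413 to 1085 in knockout VLF and 669 to 1006 in wild-type VLF livers, which overlapped, and its change of -0.33 ± 0.26 did not pass (limma adjusted p = 0.417). Nr1d1 (-0.69 ± 0.29) and Nr1i2 (-0.14 ± 0.13) did not pass either, though Nr1d1 did without knockout VLF liver 1 or 2 (-0.92 and -0.95, limma adjusted p = 0.0149 and 0.00838). In the knockout 10 regulators fell and 1 rose on the VLF diet against chow, where 19.9% of all genes were called lower and 19.2% higher. None was called between genotypes on chow, and in the wild type Onecut1 alone rose on the VLF diet (1.42). With the probe sets of a gene averaged Fgfr4 was called on chow (-0.20, limma adjusted p = 0.0318). With only the groups compared fitted, Onecut1 was not called in the wild type (limma adjusted p = 0.0661). Nr0b2 (0.86, limma adjusted p = 0.0205) and Nr1d1 (-0.36, adjusted p = 0.0441) then were.

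Transporters of bile acids split in direction. Of 14, 5 rose, 6 fell and 3 did not pass between the genotypes on the VLF diet, with a median of -0.33. Shares over all measurable genes were 25.8% lower and 21.5% higher, with 40.9% lower among genes at least as bright as the dimmest enzyme. The efflux pumps Abcc4 (log2 change 3.18 ± 0.15), Abcc2 (1.39 ± 0.07) and Abcc3 (1.12 ± 0.12), the basolateral exporter subunit Slc51b (2.02 ± 0.14) and the phospholipid flippase Abcb4 (0.70 ± 0.11) rose (limma adjusted p at most 5.64e-05). Slco2b1, an organic anion uptake carrier, fell by 1.31 ± 0.10 on the log2 scale (limma adjusted p = 7.43e-09). Slc10a1 (NTCP), the main uptake carrier of conjugated bile acids, changed by -1.89 ± 0.16, and Abcb11, the bile salt export pump, by -0.95 ± 0.17 (limma adjusted p = 2.03e-08 and 0.000166); these 2 were chosen for naming after their values were seen. Slc51a (-0.10), the partner subunit of Slc51b, Abcg5 (-0.10) and Slco1a4 (-0.56) did not pass. Without knockout VLF liver 2 both Abcg5 (-0.27, limma adjusted p = 0.00622) and Slco1a4 (-0.67, adjusted p = 0.0422) were called. Slco1a4 also passed without both arrays that stand apart (-0.57, limma adjusted p = 0.0230). It passed as well with a floor of 4, among brighter probe sets alone and with only the groups compared fitted (limma adjusted p up to 0.0476). In the knockout 4 transporters rose and 7 fell on the VLF diet against chow, where 19.2% of all genes were called higher and 19.9% lower. Abcc4 was the 1 call between genotypes on chow (0.58, limma adjusted p = 0.048), lost without any 1 of the knockout chow livers or of wild-type chow livers 1 to 4 (adjusted p up to 0.137), and Abcc3 the 1 call in the wild type between diets (-0.84). Median scaling alone also called Abcc2 (0.38, limma adjusted p = 0.0326) and Slco2b1 (0.32, adjusted p = 0.0312) on chow. Among brighter probe sets alone Slco1a1 was called in the wild type between diets (-1.65, limma adjusted p = 0.0477).

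**Figure D5:**
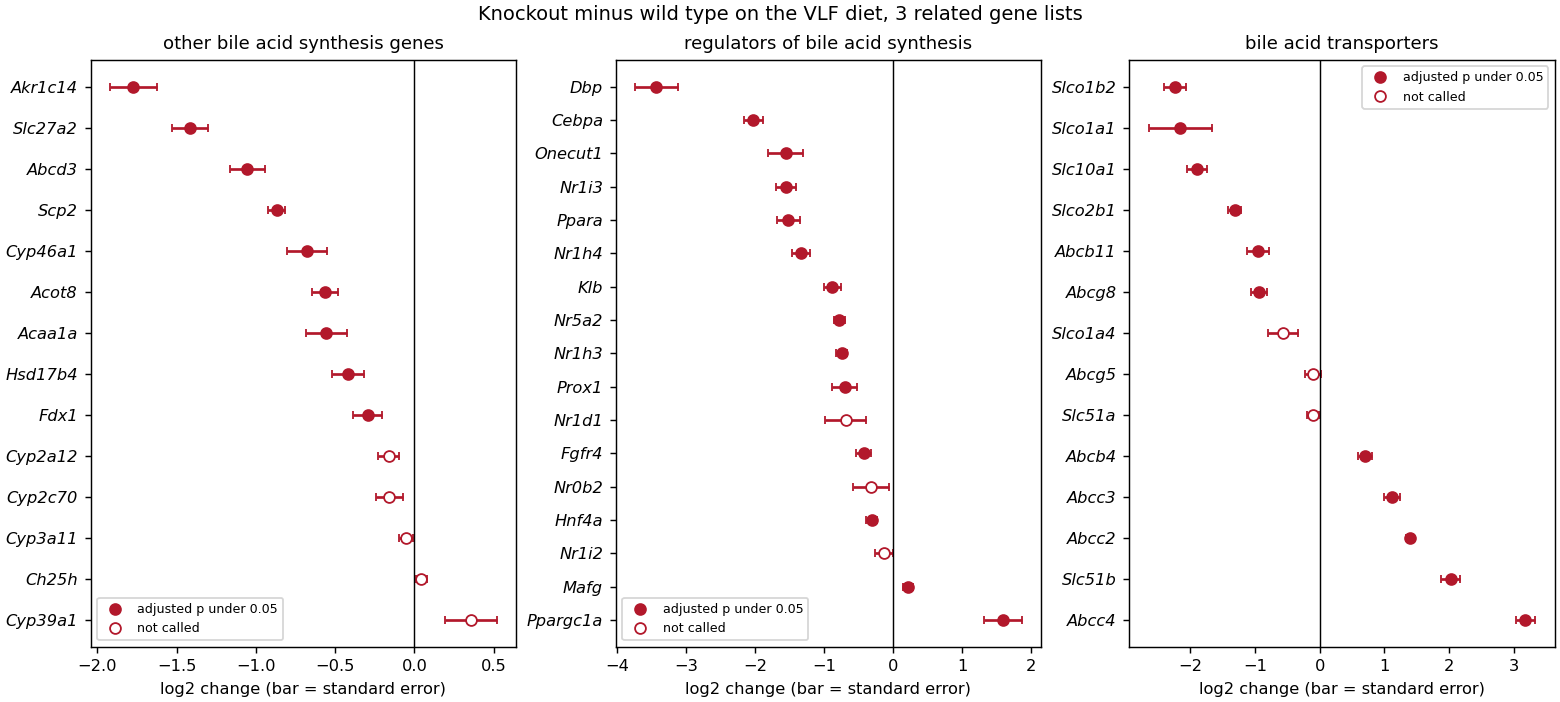
Log2 change of knockout over wild type on the VLF diet for other bile acid synthesis genes, regulators and transporters; bars are standard errors, filled points have an adjusted p under 0.05, and each group has 5 livers. Synthesis genes and regulators lie mostly left of 0, and transporters span from Slco1b2 at -2.24 to Abcc4 at 3.18.

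The genes whose pattern over the 20 arrays was nearest to that of Cyp8b1 and Cyp7a1 were metabolic enzymes of the liver. Likeness was the root mean square difference of log2 values after each gene was centred on its own mean, over 14389 candidate genes. Nearest to Cyp8b1 were the carboxylesterase Ces1f (0.73 log2 units), the deiodinase Dio1 (0.80) and the cytochromes P450 Cyp2b13 (0.81) and Cyp2c37 (0.82). Nearest to Cyp7a1 were Cyp2c54 (0.70), Cyp2c23 (0.75), Cyp2c50 (0.76) and the carboxylesterase Ces2a (0.79). These livers share groups and arrays, so the distances describe this set alone.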

How the data were processed

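Total RNA of individual flash-frozen livers was hybridised as biotinylated cRNA to Affymetrix mouse arrays, 1 array per liver, per the labels. The deposited table held 45101 probe sets, and its values have the range of linear intensity. MAS5 and RMA appear in the submitters' processing notes, and the sources used here do not say which made the values. Each array was scaled to the same median, values under 16 were set to 16, and log2 values were quantile-normalized; 64 control probe sets were removed. The 9117 probe sets at the floor throughout did not enter the variance estimate and were given a p of 1. A mean per group was fitted to all 20 arrays with limma 3.58.1 in R 4.3.3, with adjustment over 45037 probe sets; ± on log2 changes is the standard error. The fit was tested on simulated data. A single gene was named for 34945 probe sets, several for 932 and none for 9160, which gave 18193 genes, 16187 of them measurable. The number of arrays limits the precision.

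The 10 enzymes, the gene lists and the tests were chosen with earlier results of these data known. All 10 enzymes were named in every comparison; of each related list, up to 4 genes with the smallest adjusted p on the VLF diet were named, plus genes that a count of 5 or fewer needs. Related lists held 16, 18 and 14 genes, of which 14, 17 and 14 were measured. The replicate numbers in the titles were not used as pairs. Alternatives covered the floor, scaling, dim probe sets, the choice of probe set, the arrays in the fit, the variance model, the replicate number as a block and single arrays. Python 3.11.15 with matplotlib 3.10.9 drew the figures.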

Additional observations from a re-analysis of the deposited data

Results flagged for a closer look

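In the wild-type chow group 1 array held a value far from the other 4 for each of 2 enzymes. Cyp7b1 was 408 in wild-type chow liver 5, and the gap to the next liver was 0.765 of the group's range on the log2 scale. Baat was 1094 in the same liver, at 0.715 of the range. Among the 40 combinations of enzyme and group tested, these were the only 2 far values, and chance gives about 1 in 20.

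The genotype change differed between the diets for each of the 10 enzymes, by the test of the interaction. There 13.6% of all genes were called lower and 13.6% higher. Hybridization control centring left 5 of these calls. The Cyp27a1 call was lost in 9 of 20 runs that left out 1 array. The dimmer Cyp7a1 probe set was not called (limma adjusted p = 0.171). The genotype change on the VLF diet minus that on chow was -3.86 log2 units for Cyp8b1, -2.33 for Cyp7a1, -1.43 for Slc27a5, -1.31 for Akr1d1 and -1.26 for Hsd3b7. It was -1.26 for Cyp7b1, -0.68 for Baat, -0.62 for Amacr, -0.57 for Cyp27a1 and 0.61 for Acox2.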

How the results depend on the processing

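Of 50 pairs of enzyme and comparison, 34 kept their side of the threshold under every alternative run, though some uncalled changes between the genotypes on chow turned their sign. No called change reversed. The number of enzymes called was 7 to 10 between the genotypes on the VLF diet and 8 to 10 between the VLF diet and chow in the knockout. Leaving out probe sets that may bind several transcripts took Hsd3b7 and Acox2 out of the test. The counts stayed at 10 and at 9 as each array was left out in turn. With each array left out the count was 9 to 10 for the interaction, 0 to 1 between knockout and wild type on chow, and 2 to 4 between the VLF diet and chow in the wild type. Hybridization control centring gave 5 calls for the interaction and 0 for the diet in the wild type; the cause was not tested. For the diet in the knockout it gave 5 falls among the other synthesis genes and 5 falls and 3 rises among the regulators. Median scaling alone gave 1 call between genotypes on chow and 2 for the diet in the wild type, and fitting only the groups compared gave 1 for the diet in the wild type, with fewer arrays behind the variance. Averaging the probe sets of a gene, some of them at the floor on every array, lowered the VLF genotype change of Cyp27a1 to -0.30 and of Cyp7b1 to -1.06. Same-numbered arrays of different groups correlated at -0.251 to 0.268 in their deviations from the group means. Arrays with different numbers were not compared in this way, so the range does not tell whether a number marks a batch or a pairing. With the replicate number as a block the counts were 10, 0, 9, 3 and 10 for the genotype on the VLF diet, the genotype on chow, the diet in the knockout, the diet in the wild type and the interaction; Acox2 in the wild type was no longer called (-0.41, limma adjusted p = 0.0589). Cyp7a1 (49.0 to 157) and Cyp8b1 (45.5 to 68.5) in knockout VLF livers lay above the floor on every array. The deposited medians of these arrays were 33.25 to 34.92.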
